A study of Mus musculus with 7 samples.

Results

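The blood and lymphatic vessels of the gut wall are lined by endothelial cells, and 10 genes that mark these cells were followed in the small intestine of mice on a normal or low cystine diet. Pecam1, Cdh5, Kdr, Plvap and Vwf represent the blood endothelium, and Lyve1, Prox1, Pdpn, Flt4 and Ccl21a the lymphatic endothelium. The members were chosen by name, and all 10 had a row among the 38293 genes of the count table. RNA was sequenced from scrapings of the ileum, which take the epithelium and the lamina propria and leave the muscle layer behind. All mice were male C57BL/6NRJ, 8 weeks old, individually housed, and acclimatized for 1 week to a purified high fat, low calcium AIN93G diet. For the next 2 weeks 4 mice stayed on this diet (normal cys) and 3 received the same diet with the added L-cystine replaced by alanine (low cys), so that the cystine of the casein remained in both diets. Each library is 1 mouse, and no sequencing batch is named.

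In the villus, blood capillaries lie just under the epithelium and take up water-soluble nutrients, while a central lymphatic vessel, the lacteal, takes up fat packed into chylomicrons. VEGF-A acts through Kdr on blood endothelium and VEGF-C through Flt4 on lymphatic endothelium, and Prox1 is the transcription factor that gives and keeps lymphatic identity. Lymphatic vessels also secrete the chemokine Ccl21a, which draws in Ccr7-bearing dendritic cells and T cells. Several of these genes are not restricted to endothelium. Prox1 is also made by enteroendocrine and tuft cells, Pdpn by fibroblastic reticular cells, which also make Ccl21a, Lyve1 by some macrophages, and Pecam1 and Vwf by platelets.

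The libraries held between 14888760 and 22412703 counts (median 21275624 for normal cys and 15708368 for low cys). At this depth the endothelial genes were covered by few reads, with totals over the 7 libraries from 39 for Pdpn to 654 for Lyve1. Levels are given as CPM, counts per 1000000 counts of the effective (TMM-adjusted) library size. Summed over the 5 blood members the level was between 2.10 and 7.18 CPM, and over the 5 lymphatic members between 6.78 and 15.8 CPM, while 6 epithelial markers (Epcam, Vil1, Cdh1, Krt8, Krt20 and Fabp6) summed to between 12822 and 20881 CPM. The markers of the labelled tissue were thus abundant. Normal cys library X1SI4 stood apart from the rest. It was the lowest of the 7 libraries for 6 members (Pecam1, Kdr, Plvap, Pdpn, Flt4 and Ccl21a), but the highest for Prox1, and the fold changes it moved most are also given without it.

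The mean level of all 10 genes was higher in low cys, and of these Ccl21a had the largest difference. Its mean was 0.750 ± 0.401 CPM (SD, n = 4) on the normal and 2.73 ± 0.751 CPM (SD, n = 3) on the low cystine diet, which is 3.65 times higher. The ratio of the means was 2.98 for Kdr, 2.80 for Flt4 and 2.30 for Pdpn, between 1.84 and 1.89 for Plvap and Cdh5, and 1.46 for Lyve1, whereas it was 1.29 for Vwf, 1.15 for Pecam1 and 1.10 for Prox1. Of all genes tested in edgeR, 51.2% had an estimate above 0. In tissue RNA, more cells of a type and more RNA per cell cannot be told apart.

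In edgeR's quasi-likelihood test 0 of the 8 members that passed the filter on low counts had an adjusted p-value under 0.05 (Benjamini-Hochberg), as had 0 of all 14869 genes tested (0.0%), whereas 817 of these genes (5.49%) had an unadjusted p-value under 0.05. DESeq2 called 16 genes (0.108%) at an adjusted p-value under 0.05, of which 12 were higher (0.0807%), and 0 of them were members. At an unadjusted p-value under 0.05 in edgeR, 1 of the 8 members was higher (Ccl21a) and 0 were lower, where 2.66% of all genes tested were higher and 2.83% lower. Without normal cys library X17SI4, 4 of 9 members tested had an unadjusted p under 0.05 (Ccl21a, Flt4, Kdr and Plvap). Flt4 and Kdr entered this fit through the low cys libraries alone, since no normal cys library left in it exceeded the filter for them. Of 14786 genes 931 were then higher and 832 lower, in place of 396 and 421 of 14869. Without normal cys library X1SI4, Ccl21a and Lyve1 had an unadjusted p under 0.05 (505 genes higher and 328 lower of 14751). The same members had it without low cys library X26SI4 (528 higher and 430 lower of 15208). Without low cys library X10SI4 these were Ccl21a and Flt4 (234 higher and 288 lower of 15164). An estimated log2 fold change above 1 with all libraries was reached by 2 of the 8 members (Ccl21a and Kdr) and by 1.65% of all genes tested. Scaled to library totals without TMM factors, the median log2 fold change of all genes moved up by 0.14, the calls went from 396 higher and 421 lower to 911 higher and 126 lower, and Lyve1 joined Ccl21a under 0.05. The lowest low cys library exceeded the highest normal cys library for 3 of the 10 members, Ccl21a, Flt4 and Pdpn, and only Ccl21a of these passed the filter, while 3.32% of the genes tested were separated in this way. Flt4 and Pdpn did not pass the filter, for which 3 libraries had to exceed 0.473 CPM of the library total, and Cdh5 passed it through the 3 low cys libraries alone. Kdr exceeded this level in 3 of 3 low cys libraries but in only 1 of 4 normal cys libraries.

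**Figure D1:**
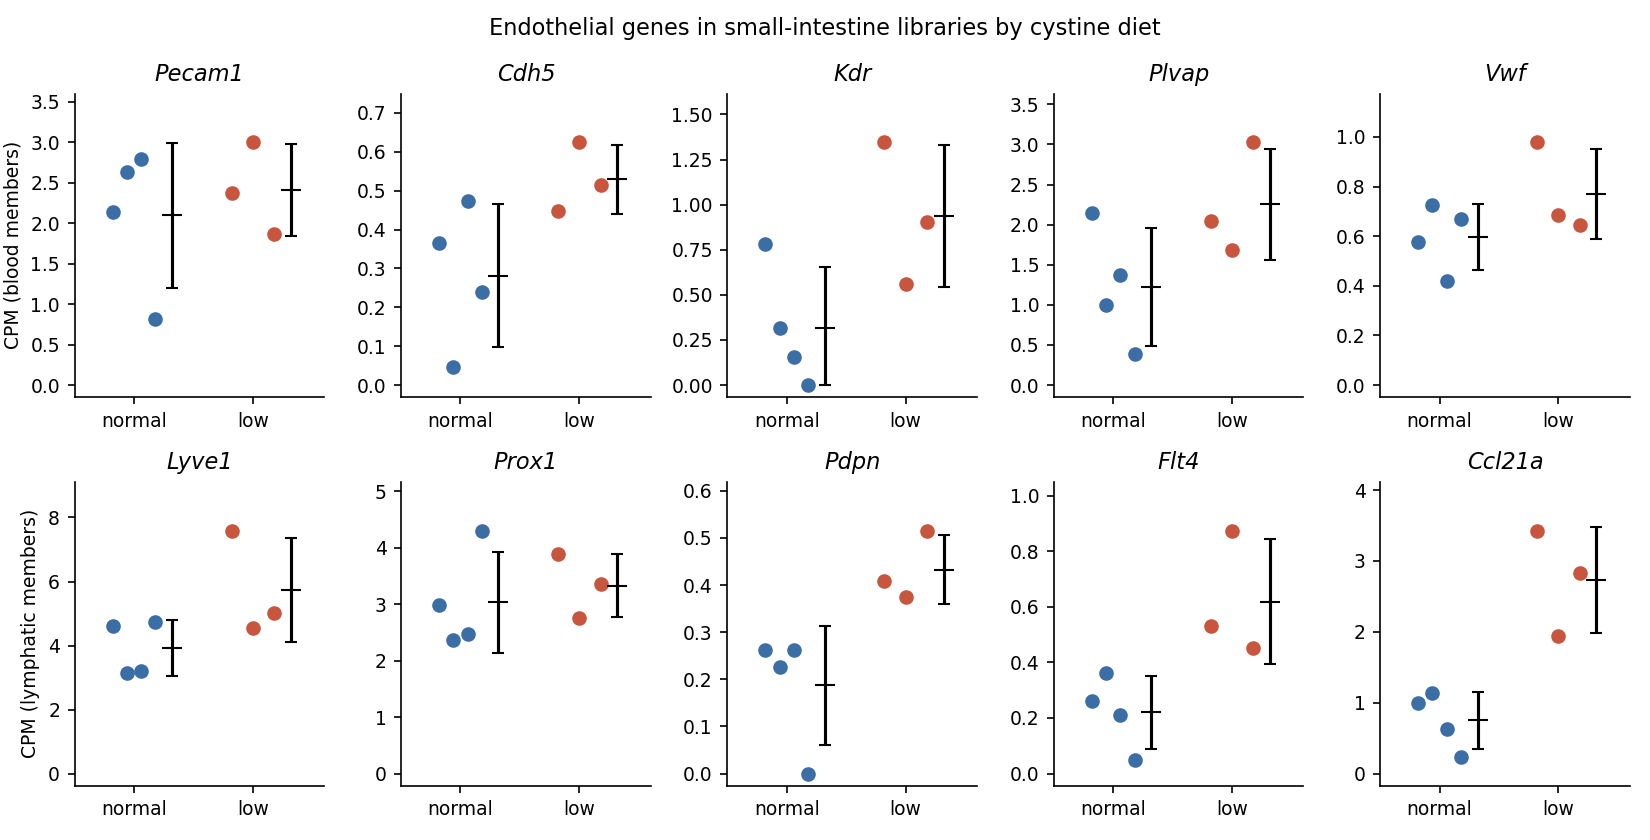
Level of each of the 10 genes in every library, in CPM (counts scaled to the effective library size), with 1 point per mouse and the mean ± SD beside the points of each diet (normal, n = 4, low, n = 3, the lower bar cut at 0). The low cys points of Ccl21a, Flt4 and Pdpn all sit above the normal cys points, those of the other 7 genes overlap with them.

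Ccl21a (ENSMUSG00000094686) lies on chromosome 4 of GRCm38 from 42772860 to 42773993 on the minus strand, with 870 exon bases. Its chemokine is held on lymphatic endothelium and guides leukocytes into the vessel. The normal cys libraries X17SI4, X32SI4, SI9 and X1SI4 held 19, 25, 12 and 5 counts, or 0.993, 1.14, 0.631 and 0.239 CPM. The low cys libraries X23SI4, X26SI4 and X10SI4 held 84, 31 and 44 counts, or 3.43, 1.94 and 2.84 CPM. The diets did not overlap, and the lowest low cys library was well above the highest normal cys library. The log2 fold change was 1.86 (standard error 0.475, 95% interval 0.79 to 2.94) with an unadjusted p of 0.00345 and an adjusted p of 0.794 in edgeR, which put it at rank 29 of the 14869 genes. The exact permutation test of log2 CPM (two-sided, n = 4 and 3) gave p = 0.0286, the smallest that 35 splits can give. Its estimate stayed between 1.57 and 2.16 when any 1 library was left out, and was 1.57 without X1SI4. DESeq2 gave an unadjusted p of 0.000255 and an adjusted p of 0.143.

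The counts of Ccl21a are not its own alone. Close copies of the gene lie nearby on chromosome 4, and 71.6% of the 50-base stretches of its transcript, the read length of the study, also occur in transcripts of other genes in GENCODE M21 (GRCm38). The copy that the table names Ccl21b (ENSMUSG00000094065, from 41903610 to 41904743 on the plus strand, named Gm21541 in GENCODE M21) is identical to Ccl21a at 864 of 870 transcript bases. Of the 6 differences 2 are in the coding part, T159A in exon 2 and C269T in exon 3, where the base of Ccl21a is given first and positions are counted from 1 at the start of the Ccl21a transcript. The stretches around these bases are printed because they hold the coding bases at which a read of Ccl21a differs from one of Ccl21b, with the differing base in capitals. A read with the Ccl21b base cannot be assigned to that gene alone, because 97.1% of the 50-base stretches of Ccl21b occur in other transcripts.
Ccl21a, bases 110 to 209: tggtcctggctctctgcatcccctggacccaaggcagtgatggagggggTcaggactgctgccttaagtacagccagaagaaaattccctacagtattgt
Ccl21b, bases 110 to 209: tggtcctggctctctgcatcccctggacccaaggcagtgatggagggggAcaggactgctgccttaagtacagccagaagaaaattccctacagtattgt
Ccl21a, bases 220 to 319: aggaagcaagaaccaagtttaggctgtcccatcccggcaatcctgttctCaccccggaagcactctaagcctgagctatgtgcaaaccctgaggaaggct
Ccl21b, bases 220 to 319: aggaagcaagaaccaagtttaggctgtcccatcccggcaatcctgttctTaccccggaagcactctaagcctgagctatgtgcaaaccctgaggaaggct

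The shared sequence is visible in the counts. Ccl21b and Gm13304, the latter with 100% of its 50-base stretches in other genes, had the same count in 7 of 7 libraries (19, 16, 7 and 4 in normal cys libraries X17SI4, X32SI4, SI9 and X1SI4, and 53, 24 and 32 in low cys libraries X23SI4, X26SI4 and X10SI4). The genes that the table names Ccl21c (ENSMUSG00000095675, named Ccl21b in GENCODE M21) and Gm10591 also shared one set of counts, from 3 to 35. Of the 12668 genes with at least 50 counts in a library, only 6 had counts identical to those of another gene in every library. The counts of the copies are therefore no independent measurements. Of the 50-base stretches of Ccl21a, 28.4% occur in no other transcript. The count of Ccl21a minus that of Ccl21b was 0, 9, 5 and 1 in the normal cys libraries and 31, 7 and 12 in the low cys libraries. It is a net difference and not a number of reads of Ccl21a alone, since Ccl21b also holds stretches that Ccl21a lacks. Its mean was 0.180 ± 0.191 CPM (SD, n = 4) on the normal and 0.825 ± 0.416 CPM (SD, n = 3) on the low cystine diet, again without overlap between the diets (highest normal cys library 0.409, lowest low cys library 0.437). The log2 fold change of this difference was 2.15 (standard error 0.780, unadjusted p = 0.0155 in edgeR without a filter), which was added once the data had been seen. With the counts of all 5 genes summed it was 1.73.

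**Figure D2:**
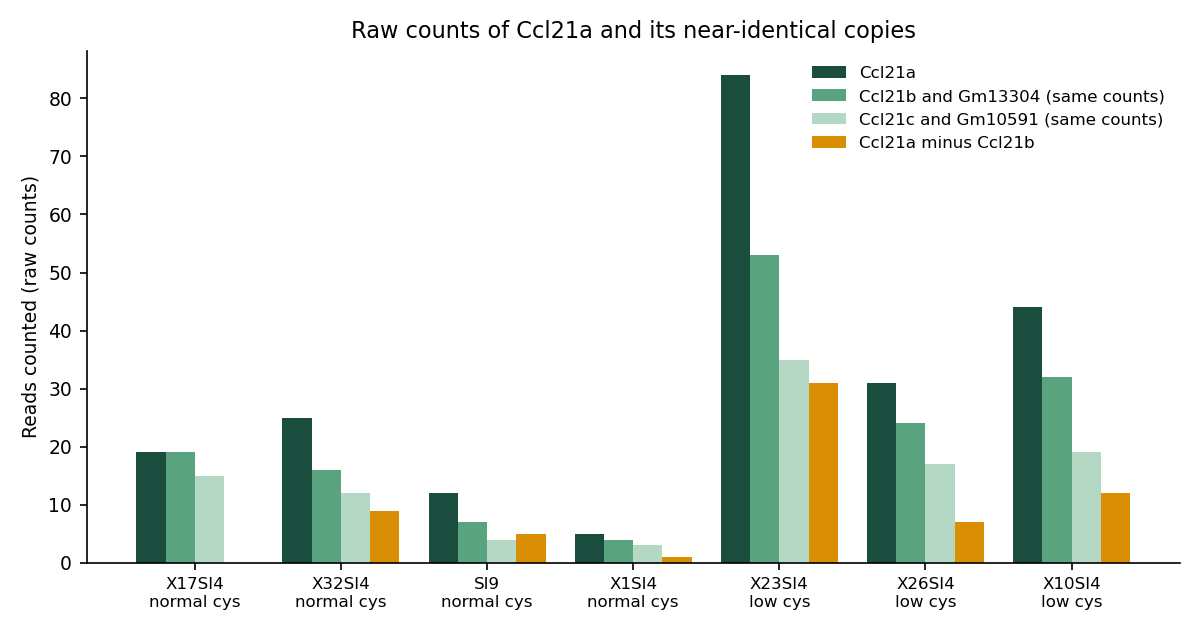
Raw counts of Ccl21a, of the 2 pairs of copies with the same counts, and of the count of Ccl21a minus that of Ccl21b, in each of the 7 libraries. The bars of Ccl21a reach 84, 31 and 44 in the low cys libraries and at most 25 in the normal cys libraries, and those of both pairs of copies are also above every normal cys library there, while the differences of the 2 counts overlap (7 in X26SI4, 9 in X32SI4).

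Flt4 (ENSMUSG00000020357, chromosome 11 of GRCm38 from 49609263 to 49652739) encodes VEGFR3, the receptor through which VEGF-C drives lymphatic growth. It had 5, 8, 4 and 1 counts in normal cys libraries X17SI4, X32SI4, SI9 and X1SI4, and 13, 14 and 7 counts in low cys libraries X23SI4, X26SI4 and X10SI4. In CPM the normal cys libraries lay between 0.0478 and 0.363 and the low cys libraries between 0.451 and 0.875, so the diets did not overlap. The mean was 0.221 ± 0.132 CPM (SD, n = 4) and 0.619 ± 0.225 CPM (SD, n = 3). In a fit without the count filter its log2 fold change was 1.44 (standard error 0.645, unadjusted p = 0.0428, adjusted p = 0.794 in edgeR), where 2.38% of genes were higher at this level. The exact permutation test (two-sided, n = 4 and 3) gave p = 0.0571. With all 7 libraries only low cys libraries exceeded the filter (2 of 3, and 0 of 4 normal cys libraries). It was tested in 3 of the fits with 1 library left out, where the estimate was between 1.16 and 1.62 and the unadjusted p rose to 0.138 without X26SI4. These fits, too, took it in through the diet in which it was high.

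Pdpn (ENSMUSG00000028583, chromosome 4 from 143267431 to 143299564) encodes podoplanin, a mucin-like surface protein that binds CLEC-2 on platelets and keeps blood and lymph vessels apart. It had the fewest reads, with 5, 5, 5 and 0 counts in the normal cys libraries and 10, 6 and 8 in the low cys libraries, in the order used for Flt4. The highest normal cys library had 0.263 CPM and the lowest low cys library 0.375. In X1SI4 the count of 0 allows a level of up to 0.143 CPM (3 counts), from counting error alone. Without the count filter the log2 fold change was 1.17 (standard error 0.771, 95% interval -0.48 to 2.82) with an unadjusted p of 0.152 in edgeR, and the exact permutation test gave p = 0.0857 (two-sided). Counting error alone amounts to 51.6% of the mean count in the normal cys libraries, so the separation of the diets rests on a few reads.

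Lyve1 (ENSMUSG00000030787, chromosome 7 from 110850607 to 110862953), a hyaluronan receptor of lymphatic capillaries, was the most highly covered member. Its level was 4.60, 3.13, 3.21 and 4.73 CPM in normal cys libraries X17SI4, X32SI4, SI9 and X1SI4, and 7.59, 4.56 and 5.03 CPM in low cys libraries X23SI4, X26SI4 and X10SI4. X23SI4 and X10SI4 were above every normal cys library and X26SI4 was within their range. The means were 3.92 ± 0.864 (SD, n = 4) and 5.73 ± 1.63 (SD, n = 3), and the log2 fold change was 0.55 (standard error 0.270, 95% interval -0.06 to 1.16, unadjusted p = 0.0701, adjusted p = 0.794 in edgeR). The estimate went from 0.30 without X23SI4, the highest library, to 0.71 without X26SI4.

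Prox1 (ENSMUSG00000010175, chromosome 1 from 190118038 to 190170680) had the smallest estimate of the lymphatic members, though no test compared it with them. Its 4 normal cys libraries X17SI4, X32SI4, SI9 and X1SI4 had 2.98, 2.36, 2.47 and 4.30 CPM, and its low cys libraries X23SI4, X26SI4 and X10SI4 3.88, 2.75 and 3.35 CPM. The highest value was that of X1SI4, in which Lyve1 was also the highest of the normal cys libraries, while Flt4 had 1 count and Pdpn 0. The diets overlapped fully, and the log2 fold change was 0.14 (standard error 0.289, 95% interval -0.51 to 0.79, unadjusted p = 0.642 in edgeR), or 0.36 without X1SI4. Its counts of 44 to 95 per library give a counting error of 12.8% of the mean in the normal cys libraries, against a spread between them of 29.4%. Enteroendocrine and tuft cell markers (Chga, Chgb, Neurod1, Neurog3, Dclk1, Trpm5 and Pou2f3) summed to between 95.1 and 128 CPM, and to 116 CPM in X1SI4, and 0 of the 6 tested had an unadjusted p under 0.05. Their part in the level of Prox1 was not tested. A gene on the opposite strand, Gm17566, overlaps 133 exon bases of Prox1 and had at most 2 counts in a library.

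Among the blood endothelial genes, Kdr (ENSMUSG00000062960, chromosome 5 from 75932827 to 75978458) had the largest and the most variable difference. It encodes VEGFR2, the main receptor for VEGF-A. Its counts were 15, 7, 3 and 0 in normal cys libraries X17SI4, X32SI4, SI9 and X1SI4, and 33, 9 and 14 in low cys libraries X23SI4, X26SI4 and X10SI4. The normal cys library X17SI4, at 0.784 CPM, was above low cys library X26SI4, at 0.562 CPM, and in X1SI4 Kdr was not detectable at this depth. The log2 fold change was 1.59 (standard error 0.812, 95% interval -0.24 to 3.42, unadjusted p = 0.0816, adjusted p = 0.794 in edgeR), and the exact permutation test gave p = 0.114 (two-sided, n = 4 and 3). Without X17SI4 the estimate was 2.53 with an unadjusted p of 0.0116 in edgeR, and without X1SI4 it was 1.18. In the fit without X17SI4, Kdr passed the filter on low counts through the low cys libraries alone.

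Plvap (ENSMUSG00000034845, chromosome 8 from 71497754 to 71511769) forms the diaphragms of fenestrated capillaries, the type found in the villus. It had 2.14, 0.999, 1.37 and 0.382 CPM in the normal cys libraries and 2.04, 1.69 and 3.03 CPM in the low cys libraries, in the order given for Kdr. Only X10SI4 was above every normal cys library. Its log2 fold change was 0.88 (standard error 0.506, unadjusted p = 0.115 in edgeR), 1.30 without X17SI4 and 0.58 without X1SI4.

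Cdh5 (ENSMUSG00000031871, chromosome 8 from 104101625 to 104144502) encodes VE-cadherin, which joins endothelial cells to each other. It had 7, 1, 9 and 5 counts in the normal cys libraries and 11, 10 and 8 in the low cys libraries. In CPM, 2 of the 3 low cys libraries were above every normal cys library, and X23SI4, at 0.449, was below SI9, at 0.473. In edgeR the log2 fold change was 0.91 (standard error 0.616, unadjusted p = 0.172 in edgeR). It went from 0.56 without X32SI4, which held 1 count, to 1.28 without SI9.

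Pecam1 (ENSMUSG00000020717, chromosome 11 from 106654217 to 106750628), the junction protein CD31, had 2.14, 2.63, 2.79 and 0.812 CPM in normal cys libraries X17SI4, X32SI4, SI9 and X1SI4, and 2.37, 3.00 and 1.87 CPM in low cys libraries X23SI4, X26SI4 and X10SI4. X1SI4 was far below the other 6 libraries, which overlapped. The log2 fold change was 0.20 (standard error 0.416, 95% interval -0.73 to 1.14, unadjusted p = 0.634 in edgeR), and without X1SI4 it was -0.064.

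Vwf (ENSMUSG00000001930, chromosome 6 from 125546774 to 125686679) encodes von Willebrand factor, which endothelium stores and releases to bind platelets. Its level was between 0.421 and 0.727 CPM in the normal cys and between 0.644 and 0.979 CPM in the low cys libraries, with X23SI4 alone above every normal cys library. For Vwf the log2 fold change was 0.37 (standard error 0.383, unadjusted p = 0.354 in edgeR). The spread between the normal cys libraries (22.4% of the mean) was no larger than their counting error (28.6%). Of 5 platelet markers, Ppbp was at 0 in every library, Gp1ba and Gp9 had at most 6 counts, and the list summed to between 1.80 and 4.00 CPM without separating the diets.

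**Figure D3:**
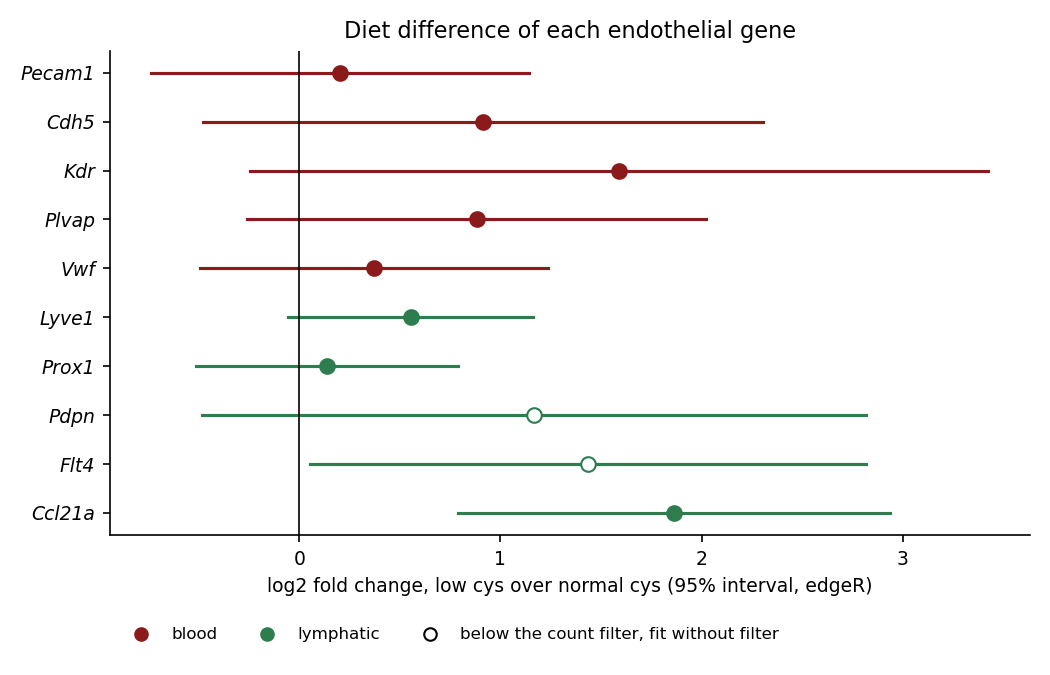
Log2 fold change of low cys over normal cys for each gene with its 95% interval from edgeR's quasi-likelihood fit, with blood members in red, lymphatic members in green, and open points for Pdpn and Flt4, which were fitted without the filter on low counts. All 10 estimates lie above 0, and the intervals of Ccl21a (0.79 to 2.94) and Flt4 (0.05 to 2.82) lie wholly above it, before adjustment for the number of genes.

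Per kilobase of exon, the levels of the members can be compared with each other. Over the 7 libraries Ccl21a (1.84 ± 1.36 CPM per kb, SD, n = 7) and Lyve1 (1.80 ± 0.568) were the highest. They did not differ beyond their spread, with Ccl21a above Lyve1 in 4 of 7 libraries, the 3 low cys libraries and X32SI4. Lyve1 was the highest in the normal cys mean (1.50 against 0.861 for Ccl21a) and Ccl21a in the low cys mean (3.14 against 2.20). The value of Ccl21a can include reads of its copies. Plvap (0.826 ± 0.425), Pecam1 (0.517 ± 0.170) and Prox1 (0.379 ± 0.0872) followed, where Plvap was above Pecam1 and Pecam1 above Prox1 in 6 of 7 libraries each. Prox1 was above Pdpn (0.161 ± 0.0903) in 7 of 7 libraries. Cdh5 (0.0972 ± 0.0484), Kdr (0.0799 ± 0.0644), Flt4 (0.0475 ± 0.0323) and Vwf (0.0418 ± 0.0105) were the lowest and were not separated from each neighbour, since Cdh5 was above Kdr in 4, Kdr above Flt4 in 3 and Flt4 above Vwf in 3 of 7 libraries. Flt4 was below Vwf in the normal cys mean (0.0268 against 0.0372) and above it in the low cys mean (0.0752 against 0.0480).

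Other genes of the same vessels were divided in direction. Of 20 further blood endothelial genes, 12 were tested, 8 had a higher and 4 a lower estimate in low cys, 0 had an unadjusted p under 0.05, and the median log2 fold change was 0.21, beside 0.0072 over all genes tested. The 2 with the highest level were Tie1, an endothelial receptor kinase, and Ptprb, the phosphatase VE-PTP. Tie1 had 51, 69, 58 and 156 counts in normal cys libraries X17SI4, X32SI4, SI9 and X1SI4 and 48, 46 and 33 in low cys libraries X23SI4, X26SI4 and X10SI4, so it was highest in the library in which Kdr had none. Its log2 fold change was -0.82 (standard error 0.406, unadjusted p = 0.0744 in edgeR), and that of Ptprb was -0.68 (standard error 0.404, unadjusted p = 0.128).

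Of 14 artery, vein and postcapillary venule genes, 7 were tested and 0 had an unadjusted p under 0.05. The selectins Selp and Sele, which venules display when inflamed, were at 0 in all 7 libraries. The highest in level were the arterial ligand Efnb2, at 99.0 and 86.0 CPM on average in normal and low cys, and its venous receptor Ephb4, at 15.8 ± 6.49 (SD, n = 4) and 24.3 ± 4.44 CPM (SD, n = 3). Neither passed the threshold (unadjusted p = 0.270 and 0.0724 in edgeR), and both are also made by intestinal epithelium.

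Of 12 further lymphatic endothelial genes, 7 were tested, and 1 was higher at an unadjusted p under 0.05 and 0 were lower. This was Reln, which encodes reelin, a protein secreted by collecting lymphatic vessels. It had 10, 15, 5 and 8 counts in normal cys libraries X17SI4, X32SI4, SI9 and X1SI4 and 16, 18 and 21 in low cys libraries X23SI4, X26SI4 and X10SI4. The low cys library X23SI4, at 0.653 CPM, was just below X32SI4, at 0.681 CPM, and the log2 fold change was 1.14 (standard error 0.453, unadjusted p = 0.0330, adjusted p = 0.794 in edgeR). The highest in level were Stab1 and Nrp2. Stab1, a scavenger receptor that macrophages share, had a log2 fold change of -0.67 (standard error 0.414) and Nrp2, the co-receptor of Flt4, of 0.18 (standard error 0.316). Over the 7 genes tested the median was 0.18.

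The ligands were measured as well. Of 9 VEGF, angiopoietin and related ligands, 5 were tested, 2 had a higher estimate in low cys, and 0 had an unadjusted p under 0.05. Vegfa, the ligand of Kdr, averaged 169 ± 63.6 CPM in normal cys (SD, n = 4) and 110 ± 1.46 CPM in low cys (SD, n = 3), and its log2 fold change was -0.61 (standard error 0.277, unadjusted p = 0.0545 in edgeR). Its highest value, 247 CPM, was that of X1SI4, and the lowest, 92.0 CPM, that of another normal cys library. Vegfb had 3.63 ± 0.979 and 4.88 ± 0.374 CPM (unadjusted p = 0.133). Vegfc, the ligand of Flt4, had a log2 fold change of -0.10 (standard error 0.294) and Figf, which encodes VEGF-D, at most 5 counts in a library.

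On the side of the Ccl21a receptor, 7 of 9 genes of CCL21 response and lymphoid stroma were tested and 0 had an unadjusted p under 0.05. Ccr7 had 12, 14, 12 and 1 counts in normal cys libraries X17SI4, X32SI4, SI9 and X1SI4 and 9, 17 and 5 in low cys libraries X23SI4, X26SI4 and X10SI4. Its log2 fold change was 0.25 (standard error 0.729). Ccl19, the second ligand of Ccr7, had at most 9 counts. The highest in level were Ltbr, the lymphotoxin receptor, and Il7, a cytokine of lymphatic endothelium and epithelium, with log2 fold changes of -0.12 (standard error 0.141) and 0.27 (standard error 0.224).

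Markers of other cell types also differed between these libraries. The sum of the epithelial markers was lower in every low cys library (12822 to 17717 CPM) than in any normal cys library (17992 to 20881 CPM). Singly, Vil1 and Krt20 separated the diets in this way, while Epcam, Cdh1, Krt8 and Fabp6 overlapped. Of these markers 6 of 6 had a lower estimate and 1 (Krt20) an unadjusted p under 0.05 in edgeR. Of 8 fibroblast markers, 7 were tested and 3 (Col3a1, Dcn and Col6a1) were higher at an unadjusted p under 0.05, and of 6 smooth muscle markers 2 (Des and Actg2) were. The estimate was higher in low cys for 6 of the 7 fibroblast markers tested (median log2 fold change 1.03), for 6 of 6 smooth muscle markers (median 1.56) and for 6 of 6 macrophage markers (median 0.46), beside a median of 0.88 over the 5 blood members and 0.55 over the 3 lymphatic members tested. For Col3a1, Dcn and Col6a1 every low cys library was above every normal cys library, as for Ccl21a. Their log2 fold changes were 1.58, 1.55 and 1.38 (unadjusted p = 0.0032, 0.0012 and 0.0042, adjusted p = 0.794 in edgeR). The fibroblast sum ran the other way on average, with 67.5 to 176 CPM in normal cys and 53.6 to 121 CPM in low cys. It was carried by Fbln1 (log2 fold change -0.75), which alone averaged 108 CPM in normal and 64.4 CPM in low cys. The smooth muscle markers summed to 12.1, 7.31, 4.57 and 2.34 CPM in normal cys libraries X17SI4, X32SI4, SI9 and X1SI4 and to 5.63, 38.2 and 14.4 CPM in low cys libraries X23SI4, X26SI4 and X10SI4. In X23SI4, the library with the most Ccl21a, Kdr and Lyve1, the smooth muscle markers were thus at a normal cys level. The fibroblast markers Col3a1, Dcn and Col6a1 were above every normal cys library there. Of 7 markers of pericytes, the cells that wrap capillaries, 5 were tested and 1 (Rgs5) was higher at an unadjusted p under 0.05. Rgs5 had 78 counts in low cys library X26SI4 and at most 22 in any other library of either diet. The pericyte list summed to between 13.6 and 32.1 CPM on the normal and between 18.6 and 24.0 CPM on the low cystine diet. The part of these cell types in the endothelial values was not tested.

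X1SI4 was also low in macrophage markers (10.7 CPM summed, and between 27.1 and 39.8 CPM in each of the 6 remaining libraries), and 0 of the 6 tested macrophage markers had an unadjusted p under 0.05. Of 6 B and T cell markers, 4 mesothelial markers and 5 red cell markers, 0 had an unadjusted p under 0.05, and their sums overlapped between the diets. Summed over the 5 blood members, X1SI4 had 2.10 CPM, the 3 remaining mice on the normal diet 4.72 to 6.01 CPM and the low cys mice 6.56 to 7.18 CPM. Summed over the 5 lymphatic members, of which Lyve1 and Prox1 are the most abundant, the same 3 groups had 9.32, 6.78 to 9.09 and 10.5 to 15.8 CPM. This separation of the lymphatic sums rests on Ccl21a, at 1.94 CPM in X26SI4 and 0.239 CPM in X1SI4. Without Ccl21a the sum of X26SI4 is below that of X1SI4. The 20 further blood endothelial genes had a mean sum of 14.0 CPM in normal and 14.3 CPM in low cys. Their most abundant genes, Tie1 (4.08 and 2.32 CPM) and Ptprb (2.20 and 1.37 CPM), were lower in low cys. Of the 12 tested, 8 had a higher estimate. The sum of the 12 further lymphatic genes ran the other way, with 27.4 and 21.6 CPM. It was carried by Stab1 (21.9 and 13.8 CPM), while 4 of the 7 tested had a higher estimate.

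**Figure D4:**
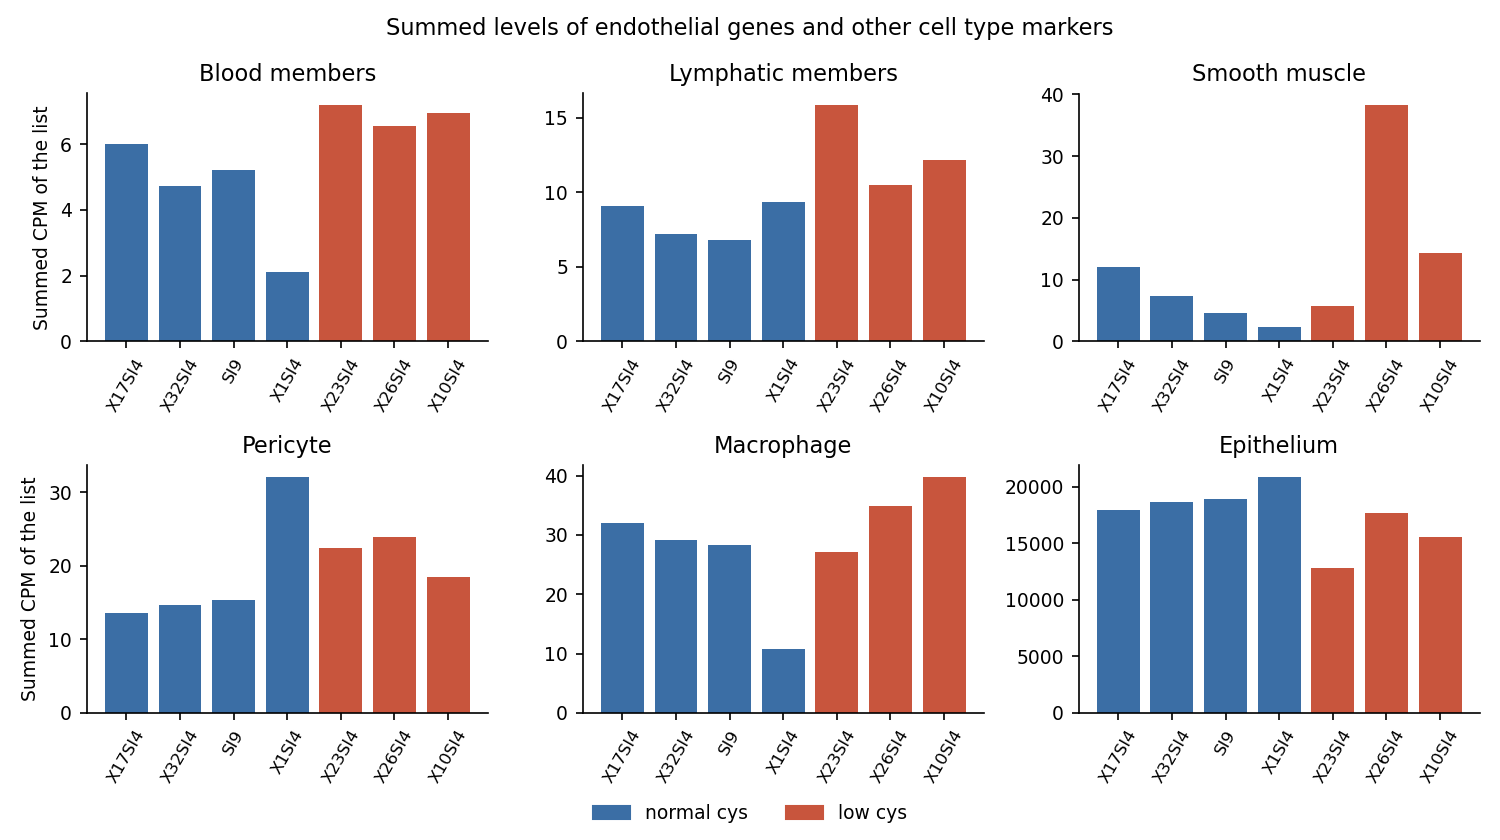
Summed level in CPM of the 5 blood and 5 lymphatic endothelial genes and of the smooth muscle, pericyte, macrophage and epithelial markers in each library, with normal cys libraries in blue and low cys libraries in red. Both endothelial sums are higher and the epithelial sum is lower in the 3 low cys libraries than in the 4 normal cys libraries, while X1SI4 is lowest for blood endothelium (2.10), smooth muscle (2.34) and macrophages (10.7). Without Ccl21a the lymphatic sums of the diets overlap.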

How the data were processed

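Stranded paired-end libraries were made from the poly(A) RNA of 7 mice. After trimming (TrimGalore) and removal of ribosomal reads (SortMeRNA), the authors used STAR to place the reads on GRCm38 and featureCounts to count them over the exons of Ensembl release 70. They deposited raw counts per gene without normalization, together with exon lengths. The strand setting and the treatment of reads with several matches are not given in the sources used here. Diets were taken from the sample labels. Nothing in the labels pairs mice of the 2 diets.

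Genes were kept by filterByExpr (minimum count 10, minimum total count 15), which left 14869, TMM factors were computed, and edgeR 4.0.16 (R 4.3.3) gave robust quasi-likelihood tests without covariates. The biological coefficient of variation between mice was 25.5%. Log2 CPM used a prior count of 2, and the difference of means was also tested in each of the 10 genes by exact permutation (two-sided) over 35 splits, with a smallest possible p of 0.0286. The edgeR p-values set the diet difference against the spread between mice, and the permutation p-values place the observed split among the 35. Alternatives were DESeq2 1.42.0, limma-voom (limma 3.58.1), other scalings and filters, a non-robust fit, sums over the Ccl21a copies and leaving out each library. Shared 50-base stretches and the printed sequences come from GENCODE M21 transcripts. Of the gene identifiers, 36429 matched GENCODE M21 and 1864 did not. The members and gene lists were chosen with earlier results of these data known. Genes outside the members were named where they had the highest level of their list (2 per list), an unadjusted p under 0.05, or define a list.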

Additional observations from a re-analysis of the deposited data

Results flagged for a closer look

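Among the normal cys libraries, 12 values were examined for a library far from the other 3 (the log2 CPM of the 10 genes and of the 2 summed levels), and 1 was beyond the critical value, where chance gives 0.6. This was Pdpn in X1SI4. Its log2 CPM was -3.29, against -1.60, -1.46 and -1.45 in the other normal cys libraries, and the distance to the nearest library was 0.919 of the whole range. The value rests on a count of 0 against 5 counts in each of the other 3 libraries.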

How the results depend on the processing

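Of 120 log2 fold changes of members under an alternative, 112 kept their direction and their side of an unadjusted p of 0.05, 6 passed it, 1 (Flt4) no longer did and 1 reversed, that of Pecam1, which was -0.064 without X1SI4 and up to 0.36 with another library left out. Ccl21a stayed under 0.05 in all 16 of its alternatives, and adjusted p-values of members stayed above 0.05 throughout. Genes at an adjusted p under 0.05 numbered 16 with DESeq2 and between 0 and 1 with each library left out, and genes at an unadjusted p under 0.05 between 258 and 1763. Members at an unadjusted p under 0.05 were 2 with limma-voom, with library totals and without a filter, 0 with at least 10 counts in every library, where only 3 members were tested, and between 1 and 4 with each library left out. Other endothelial genes at this level were 3 with limma-voom, 2 with library totals, 2 without a filter, 0 with at least 10 counts in every library and between 0 and 3 with each library left out. With library totals the exact permutation p of Lyve1 was 0.0286, and the summed level of the blood members in low cys was 7.32 CPM. The cause of these changes was not tested. No paired analysis was possible because no replicate number is shared between the diets in the labels. Depth limits Pdpn, Flt4 and Cdh5 most, with 39, 52 and 51 counts in all.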

Other observations

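These genes were picked once their values were known. Genes of B cell follicles, such as those of Peyer's patches, divided the libraries in another way than the diet. Cxcl13, the chemokine of follicular stroma, had 2, 112, 66 and 13 counts in normal cys libraries X17SI4, X32SI4, SI9 and X1SI4 and 113, 142 and 4 in low cys libraries X23SI4, X26SI4 and X10SI4. Cr2, a receptor of B cells and follicular dendritic cells, had 7, 165, 90 and 19 counts and 107, 151 and 2 counts in the same order. Madcam1, the adhesion molecule by which lymphocytes enter gut venules, followed the same libraries, with 0, 10, 13 and 1 counts and 8, 21 and 0 counts. In X10SI4, where these follicle genes were low, Ccl21a had its second highest level, 2.84 CPM. The part of lymphoid tissue in the level of Ccl21a was not tested.

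Mmrn1, a lymphatic endothelial gene that encodes multimerin, had 4, 13, 0 and 0 counts in the normal cys and 26, 8 and 15 counts in the low cys libraries, and its log2 fold change was 2.02 (standard error 0.931, unadjusted p = 0.0583 in edgeR). Clec14a, an endothelial lectin, had 37 counts in X1SI4 and between 6 and 16 in the other 6 libraries, and so, with Tie1, was highest where Kdr had 0 counts.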
